A study of Mus musculus with 8 samples.

Results

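The genes of oxidative phosphorylation described here were chosen by name, as the probes with a value on all 8 arrays whose gene symbol starts with Nduf followed by a, b, c, f, s or v, with Uqcr, with Cox4 to Cox8, with Atp5 or with Cycs. This takes 70 of 16588 probes, for 62 of 11147 genes with a symbol, of which 8 have 2 probes. Oxidative phosphorylation passes electrons along the inner mitochondrial membrane and uses the proton gradient they build to make ATP. Complex I takes electrons from NADH, complex III passes them from ubiquinol to cytochrome c, complex IV hands them to oxygen, and complex V, the ATP synthase, lets protons back through a rotating ring of c subunits that drives the catalytic head. Neurons spend most of this ATP on ion pumping and synaptic transmission, and most subunits are encoded in the nucleus and are imported into the organelle. By function 35 probes belong to complex I, 6 to complex III, 13 to complex IV and 10 to complex V. The last 6 have matching names but are no subunits of these complexes, namely the assembly factors Ndufaf1 and Ndufa12l, the supercomplex factor Cox7a2l, and Atp5s, Atp5sl and Cox4nb, of which Cox4nb encodes a protein of the endoplasmic reticulum. Ndufa4, first described in complex I, is counted with complex IV, where its protein sits. A further 7 matching probes were blank on all arrays, those of Cox4i2, Cox7b2, Cox8b, Cox8c and Ndufc2 and a second probe each of Ndufc1 and Ndufab1. Cycs and the subunits encoded in the mitochondrial genome had no probe with values, so that cytochrome c and the mitochondrially made core of complexes I, III, IV and V are not analysed here.

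Left hippocampi of 4 groups of male mice on the C57BL/6 background, 6 to 8 weeks old, were measured on 2 arrays per group. KTL and KNL are homozygous knockouts of Cav3.2, a T-type calcium channel encoded by Cacna1h, and WTL and WNL are wild type. KTL and WTL mice went through trace fear conditioning (TFC), in which a tone and a foot shock are separated by a gap, and were killed right after a test of contextual memory on the next day, whereas KNL and WNL were naive. Each RNA was pooled from 3 mice, the knockout lacks the channel in every tissue from conception, and no group received the tone, the shock or the handling alone, so that training here means the whole procedure.

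The KNL arrays stood apart from all others. Over all probes, Pearson's r between a KNL array and an array of another group ran from 0.852 to 0.938, against 0.968 to 0.985 among the other groups and 0.979 to 0.993 between replicates. For the 70 oxidative phosphorylation probes these ranges were 0.896 to 0.955, 0.976 to 0.992 and 0.985 to 0.996. They run across probes, which are no independent replicates. The comparisons that leave KNL out are KTL vs WTL, WTL vs WNL and KTL vs WNL. The probe of the targeted gene Cacna1h read 1171 and 1395 in KTL, 1929 and 1377 in KNL, 2836 and 1838 in WTL and 2732 and 2985 in WNL. KNL replicate 1 lay above WTL replicate 2, so that genotypes overlapped, and its log2 changes of -0.81 in KNL vs WNL and -0.84 in KTL vs WTL were not called (adjusted p = 0.0303 and 0.19), and whether the probe lies inside the deleted stretch is not given in the sources used here. Values are normalized intensities in arbitrary units with a floor of 100, and a mean is the geometric mean of 2 arrays.

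In naive knockouts the subunits did not move as 1 block. Of the 70 probes, 15 were lower in KNL than in WNL, 1 was higher and 54 were not called, where a call needs an adjusted p under 0.01 from limma and a change over 2-fold, and changes are log2 differences with their standard error (SE). That is 21.4% lower and 1.43% higher, against 13.5% lower and 6.93% higher among all 16588 probes. The ATP synthase held 6 of the 15, out of its 10 probes, and complex I held 8 of its 35. Complex III had no called probe among 6 and complex IV had 1 higher and none lower among 13, while the factors outside the complexes had 1 lower among 6. The median log2 change was -1.70 for complex V, -0.11 for complex I, 0.13 for complex III, 0.21 for complex IV and -0.34 for the factors, beside 0.16 over all probes. Differences between complexes were not tested. The RNA is that of whole tissue, so that fewer cells of a type and less RNA per cell cannot be told apart.

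**Figure D1:**
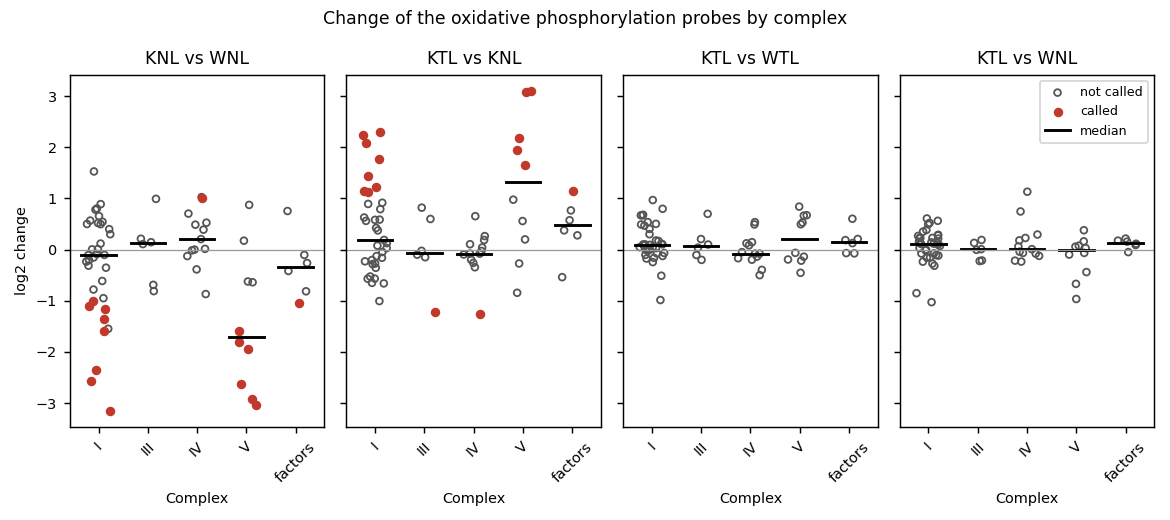
Log2 change (vertical axis) of each of the 70 oxidative phosphorylation probes by complex (horizontal axis) in KNL vs WNL, KTL vs KNL, KTL vs WTL and KTL vs WNL. Filled points are called, open points are not, and a line marks the median of a complex, which for complex V is -1.70 in KNL vs WNL and 1.32 in KTL vs KNL. Called points appear only in the 2 panels that contain KNL.

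The c ring had the largest change in complex V. Atp5g3, one of 3 genes for the c subunit and the only one measured, read 12806 and 14419 on the KTL arrays, 1666 and 1485 on the KNL arrays, 10399.6 and 8930.1 on the WTL arrays and 12894 and 12876 on the WNL arrays. Both KNL arrays lay far below the other 6, which ranged from 8930.1 to 14419. The change of -3.03 (log2, SE 0.13, adjusted p = 0.000117) was called under every alternative tried, including a test against a 2-fold change and the omission of any array.

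Other parts of the synthase were lower with it. Atp5k, the e subunit that helps the enzyme dimerize in the membrane, read 1736 and 2739 in KTL, 308 and 218 in KNL, 1546 and 959 in WTL and 1884 and 2018 in WNL, a change of -2.91 (log2, SE 0.31, adjusted p = 0.000774). Atp5a1, the alpha subunit of the catalytic head, read 5119.6 and 8422 in KTL, 2117 and 1355 in KNL, 10986 and 5295 in WTL and 10683 and 10208 in WNL, a change of -2.62 (log2, SE 0.41, adjusted p = 0.00259). The KNL arrays of both were the lowest of the 8, and the KTL and WTL replicates of both lay further apart than those of WNL. The central stalk, which turns inside the head, was lower in 2 of its 3 parts. Atp5e, its epsilon subunit, read 3416 and 2997 in KTL, 834 and 593 in KNL, 2384 and 1689.5 in WTL and 2461 and 2459 in WNL, a change of -1.81 (log2, SE 0.22, adjusted p = 0.00115). Atp5d, its delta subunit, read 3428 and 4633 in KTL, 1447 and 1103 in KNL, 3821 and 1995 in WTL and 4515 and 3249.5 in WNL, a change of -1.60 (log2, SE 0.35, adjusted p = 0.00853). The gamma subunit Atp5c1 was not called by either of its probes. Atp5j, coupling factor 6 of the peripheral stalk, was near the floor in KNL at 111 and 113, against 199 and 243 in KTL, 399 and 226 in WTL and 519.7 and 354 in WNL. Its change of -1.94 (log2, SE 0.30, adjusted p = 0.00255) therefore rests on dim values. Of the rest, Atp5b, the catalytic beta subunit and the brightest probe of the complex, read 48206 and 65479 in KTL, 41264 and 35240.3 in KNL, 32198 and 38988 in WTL and 52719 and 65476 in WNL, with 1 KTL and 1 WNL array at the ceiling of the scanner. Its KNL arrays lay below both KTL and both WNL arrays and overlapped WTL, and its change of -0.62 was not called (adjusted p = 0.035). Atp5f1, the b subunit of the peripheral stalk, had a difference of -0.64 (adjusted p = 0.00301), under 2-fold. Summed over the 10 probes, intensity was 101810 and 96253 in KNL, against 139912 and 144926 in WNL. The sum was also low in WTL, at 107360 and 111322, and reached 121818 and 145459 in KTL.

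In 250 bases of promoter upstream of the annotated start, 53 of the 62 genes had a window in the RefSeq table for GRCm38.p6. Cores of 3 factors that are known to serve such genes were searched on both strands, namely GCGCATG for NRF1, CCGGAAG for GABP and other ETS factors, and ATGGCGG for YY1. The NRF1 core lay in 4 of the 53 genes, the ETS core in 9 and the YY1 core in 5, or 7.55%, 17.0% and 9.43%, against 4.51%, 10.2% and 3.0% of 17492 protein-coding genes. Among the 13 genes with a called lower probe and a window each core lay in 2, and among the other 40 they lay in 2, 7 and 3. The promoters printed here, all on the minus strand, are those of the lower genes with a match, Atp5k (chr5:108434400-108434649), Atp5e (chr2:174464102-174464351), Atp5j (chr16:84834977-84835226), Ndufa6 (chr15:82354292-82354541) and Ndufa5 (chr6:24527527-24527776), and for contrast that of Cox6a1 (chr5:115348959-115349208), which was not called. They run 5′ to 3′ in gene direction with the cores in capitals, and a core on the opposite strand appears as its reverse complement.
Atp5k: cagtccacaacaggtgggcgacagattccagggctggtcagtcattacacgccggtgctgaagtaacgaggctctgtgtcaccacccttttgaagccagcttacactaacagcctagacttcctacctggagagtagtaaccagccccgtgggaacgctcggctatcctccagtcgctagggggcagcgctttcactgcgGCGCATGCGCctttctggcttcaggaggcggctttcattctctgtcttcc
Atp5e: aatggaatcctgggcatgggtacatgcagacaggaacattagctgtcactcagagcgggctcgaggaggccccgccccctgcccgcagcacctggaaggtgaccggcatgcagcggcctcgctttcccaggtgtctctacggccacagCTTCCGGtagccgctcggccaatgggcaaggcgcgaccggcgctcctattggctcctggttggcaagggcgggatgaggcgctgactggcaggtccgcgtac
Atp5j: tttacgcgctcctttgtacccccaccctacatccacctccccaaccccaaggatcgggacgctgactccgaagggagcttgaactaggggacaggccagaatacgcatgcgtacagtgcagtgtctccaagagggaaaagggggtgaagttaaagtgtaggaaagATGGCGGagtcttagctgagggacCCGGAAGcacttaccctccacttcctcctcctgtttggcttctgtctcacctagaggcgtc
Ndufa6: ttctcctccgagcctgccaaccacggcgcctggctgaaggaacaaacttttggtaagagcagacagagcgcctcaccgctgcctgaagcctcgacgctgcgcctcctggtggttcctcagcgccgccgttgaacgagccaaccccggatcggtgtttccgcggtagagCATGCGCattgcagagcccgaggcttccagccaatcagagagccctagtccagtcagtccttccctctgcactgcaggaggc
Ndufa5: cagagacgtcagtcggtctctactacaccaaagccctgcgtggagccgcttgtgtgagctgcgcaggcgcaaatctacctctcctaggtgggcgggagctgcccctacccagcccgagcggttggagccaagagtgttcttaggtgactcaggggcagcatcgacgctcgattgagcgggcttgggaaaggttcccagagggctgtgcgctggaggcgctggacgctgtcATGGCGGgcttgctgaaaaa
Cox6a1: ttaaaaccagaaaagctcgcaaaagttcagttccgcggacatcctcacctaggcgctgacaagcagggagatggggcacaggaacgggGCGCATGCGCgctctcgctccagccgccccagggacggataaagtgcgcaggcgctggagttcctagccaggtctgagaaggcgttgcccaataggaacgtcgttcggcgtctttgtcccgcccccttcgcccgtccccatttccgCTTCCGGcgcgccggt
In Atp5k and Cox6a1 the NRF1 core occurs on both strands and the copies overlap, so that the capitals spell 1 palindrome, 50 and 162 bases before the start. Ndufa6 has an NRF1 core at 82 bases on the opposite strand, Atp5e has an ETS core at 102, and, from the downstream one of 2 annotated starts each, Ndufa5 has a YY1 core at 20 bases and Atp5j has ETS and YY1 cores at 61 and 85 bases. The windows of the upstream starts of Ndufa5 and Atp5j hold none of the cores. The cores of both genes thus lie downstream of another annotated start. The YY1 core opens with the letters ATG, so that a copy in gene direction may be coding sequence and no promoter site. Such copies are those of Ndufa5, Atp5j, Ndufa7 and Atp5sl, which are counted above. Whether they are coding was not tested. Cox6a1 also has an ETS core at 16 bases. A match is a description of letters and was not tested as a site.

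**Figure D2:**
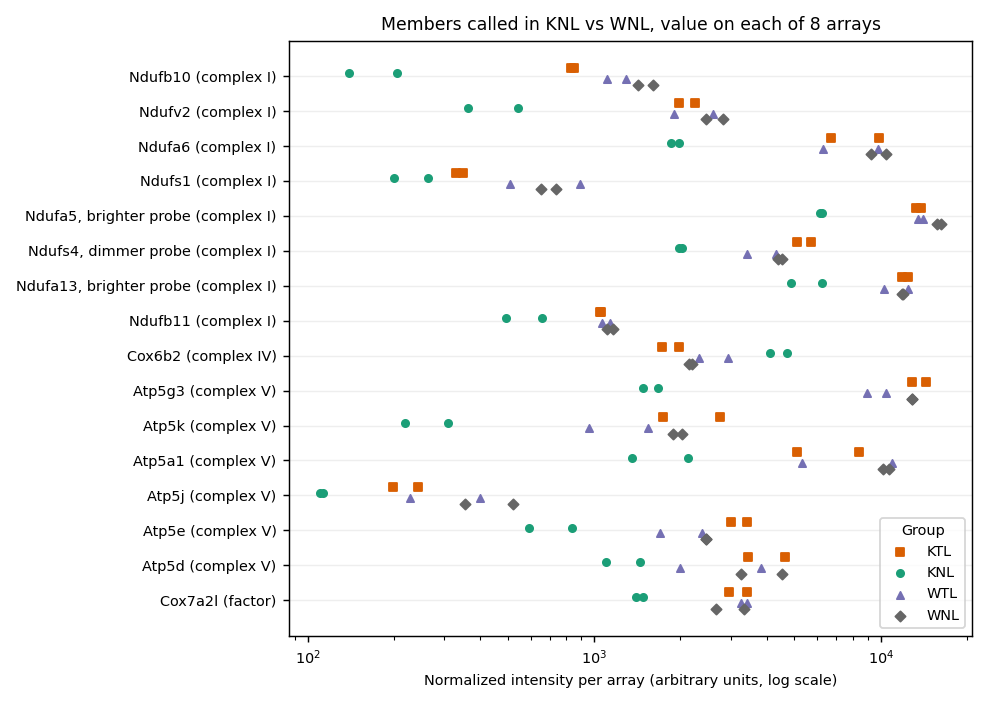
Normalized intensity on each array (horizontal axis, log scale, arbitrary units) of the 16 oxidative phosphorylation probes called in KNL vs WNL, 1 row per probe and 1 marker shape per group. The KNL points lie left of all others in every row but that of Cox6b2, where KNL read 4109 and 4701 and no other array exceeded 2938.

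In complex I, 2 of 6 core subunits and 6 of 29 accessory probes were lower in KNL, and none was higher. These are 33.3% and 20.7% lower, against 13.5% lower and 6.93% higher of all probes. The 2 core subunits carry iron-sulfur clusters of the arm that takes up electrons from NADH. Ndufv2 read 1983 and 2248 in KTL, 542 and 364 in KNL, 2603 and 1898 in WTL and 2459.6 and 2809 in WNL, a change of -2.57 (log2, SE 0.24, adjusted p = 0.000444). Ndufs1 read 329.7 and 349.6 in KTL, 264 and 201 in KNL, 893 and 507 in WTL and 736 and 651 in WNL, a change of -1.59 (log2, SE 0.27, adjusted p = 0.00369). For Ndufv2 only KNL was apart, whereas for Ndufs1 the KTL arrays also lay below all 4 wild-type arrays. Their partner Ndufv1, which binds NADH, was highest in KNL. It read 16657 and 16869.8 in KTL, 20475 and 20313 in KNL, 16339 and 17385 in WTL and 15088 and 15845 in WNL and its difference of 0.40 missed the call (adjusted p = 0.0124).

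Ndufb10, an accessory subunit of the membrane arm, had the largest change of the 70 probes in KNL vs WNL. It read 848 and 826 on the KTL arrays, 205 and 139.6 on the KNL arrays, 1288 and 1104 on the WTL arrays and 1418 and 1609 on the WNL arrays, a change of -3.16 (log2, SE 0.20, adjusted p = 0.000164). The KNL arrays were the lowest, and the KTL arrays lay between them and the wild-type arrays. Ndufb10 lies on chromosome 17 (promoter window chr17:24724424-24724673), as does the targeted gene Cacna1h. Of the other called genes, Ndufv2 (window chr17:66101560-66101809) and Cox7a2l (window chr17:83514334-83514583) are on that chromosome too, at other positions. Distances to Cacna1h were not analysed here. The part of DNA linked to the targeted gene in these changes was not tested. Ndufa6, which docks the acyl carrier protein onto the complex, read 6709 and 9841 in KTL, 1979.7 and 1860.4 in KNL, 9808 and 6280.4 in WTL and 9211 and 10458 in WNL, a change of -2.35 (log2, SE 0.26, adjusted p = 0.000826). Ndufa5, an accessory subunit of the arm that projects into the matrix, read 13869 and 13256 in KTL, 6247 and 6162 in KNL, 13527 and 13996 in WTL and 15659.8 and 16278 in WNL on its brighter probe, a change of -1.36 (log2, SE 0.09, adjusted p = 0.0002). In both genes the 2 KNL arrays were the lowest of the 8 by a wide gap. The smaller called changes were -1.16 for the dimmer probe of Ndufs4 and -1.11 for the brighter probe of Ndufa13 (adjusted p = 0.00107 and 0.00187), and that of Ndufb11 just passed 2-fold (adjusted p = 0.00233). All 3 encode accessory subunits, Ndufs4 near the site of NADH oxidation and Ndufa13 and Ndufb11 in the membrane. Ndufb11 read 656 and 490.5 in KNL, against 1162 and 1108 in WNL.

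Several subunits ran the other way by less than 2-fold. Without a minimum change, 10 of the 70 probes were higher in KNL and 20 lower at an adjusted p under 0.01, against 18.7% higher and 19.1% lower of all probes. The members were thus higher less often than all probes, and lower more often. Complex I then had 6 higher and 9 lower, complex V 1 higher and 7 lower, and complexes III and IV 1 of each. Among the higher were Ndufa9, a subunit near the quinone site, at 27770.0 and 28044 in KNL against 16105 and 14088 in WNL, and the core subunit Ndufs3, at 2597 and 2827 against 1746 and 1423, with log2 differences of 0.89 and 0.78 (adjusted p = 0.00274 and 0.00463). These 2 were picked after their values were seen. Both KNL arrays lay below all 6 others in 26 of the 70 probes and above all 6 in 17, which is 37.1% and 24.3%, against 26.9% and 37.5% of all probes. Summed over its 35 probes, complex I intensity was 277489 and 275058 in KNL, against 278171 and 271198 in WNL, and these totals overlapped.

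Complexes III and IV had 1 called probe between them, and differences under 2-fold in both directions. Cox7b, a small subunit of complex IV, read 15556 and 15383 in KTL, 9598 and 10074 in KNL, 17118 and 16897 in WTL and 19608 and 16456 in WNL, a difference of -0.87 (log2, SE 0.12, adjusted p = 0.00157), with both KNL arrays the lowest of the 8. Uqcr, a small subunit of complex III, read 3781 and 3614 in KNL against 5907 and 6011 in WNL, a difference of -0.69 (log2, SE 0.10, adjusted p = 0.00228). Uqcrq, another small subunit, read 224 and 241 in KNL against 111 and 123 in WNL, a difference of 0.99 (log2, SE 0.15, adjusted p = 0.0025), just short of 2-fold. All 3 passed the adjusted p and missed the call on size alone. Uqcrfs1, the Rieske iron-sulfur protein, differed by -0.81 (adjusted p = 0.0485). Cox7b, Uqcr and Uqcrfs1 were picked after their values were seen. The brightest probe of complex III, that of the hinge protein Uqcrh, read 40246 and 36867 in KTL, 38988 and 39324 in KNL, 36453 and 35471 in WTL and 36453 and 31321 in WNL, and its difference of 0.21 was not called (adjusted p = 0.148). In complex IV, Cox8a and the brighter probe of Cox6a1 sat at the ceiling of the scanner on most arrays, between 59184 and 65477, where a higher level could not be read. Cox4i1, the ubiquitous form of subunit 4, read 47291 and 45812 in KTL, 51006 and 55797 in KNL, 49065 and 47291 in WTL and 45812 and 46696 in WNL, a difference of 0.21 that was not called (adjusted p = 0.113). For Cox5a the WNL arrays read 2617 and 17481 while the other 6 ranged from 10725 to 18243, so that its difference of 1.03 (SE 0.82) rests on WNL replicate 1, without which it was -0.34.

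The single rise was in a tissue isoform. Cox6b2, the testis form of a complex IV subunit, read 1975 and 1722 on the KTL arrays, 4109 and 4701 on the KNL arrays, 2315 and 2938 on the WTL arrays and 2197 and 2142 on the WNL arrays. Its KNL arrays were the highest of the 8, a change of 1.02 (log2, SE 0.15, adjusted p = 0.0023). The 2 probes of the general form Cox6b1 differed by 0.39 and 0.53, neither called (adjusted p = 0.0591 and 0.0445). Of the other pairs, the heart and muscle form Cox6a2 read 1344 and 1489 in KTL, 1492 and 1267 in KNL, 1077 and 940.0 in WTL and 713 and 998 in WNL, a difference of 0.70 that was not called (adjusted p = 0.0181). The dimmer probe of the general Cox6a1, whose brighter probe is at the ceiling and gives no difference, differed by 0.49, Cox7a1, again of heart and muscle, by -0.01 and the general Cox7a2 by -0.13, none called (adjusted p = 0.0124, 0.957 and 0.279). Ndufaf1, the brightest factor outside the complexes, read 3225 and 2865 in KTL, 2562 and 2449.6 in KNL, 2587 and 2996 in WTL and 2843 and 2549 in WNL (log2 difference -0.10, adjusted p = 0.497). Cox7a2l, which helps to join complexes III and IV into supercomplexes, was the only called factor, with 2949.8 and 3405 in KTL, 1479.5 and 1394 in KNL, 3418 and 3253 in WTL and 2665 and 3329 in WNL, a change of -1.05 (log2, SE 0.14, adjusted p = 0.00165). Only KNL was low for Cox7a2l.

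Where a gene had 2 probes, they often disagreed. Of 8 such genes, 4 had opposite signs in KNL vs WNL, 3 had 1 probe called and none had both. Ndufa5 read 6247 and 6162 in KNL, against 15659.8 and 16278 in WNL on the brighter probe, and 10074 and 10842 against 12383 and 11721 on the other, with changes of -1.36 and -0.21. For Ndufa13 the brighter probe changed by -1.11 and the other, near the floor at 181 and 182 in KNL against 106 and 102 in WNL, differed by 0.80 without a call. For Ndufs4 it was the dimmer probe that fell, at 1974 and 2021 in KNL against 4373 and 4539.9 in WNL, while the brighter, at 21356 and 22639.7 against 23696 and 20116, differed by 0.01. So each of the 3 calls rests on 1 of 2 probes. The probes of Atp5c1 differed by 0.17 and 0.87, Ndufa10 by 0.00 and -0.35 and Ndufb8 by -0.15 and 1.53, brighter probe first, with no call (adjusted p = 0.0268 for the last). Which exon or isoform a probe reads is not given in the sources used here. The other 54 genes have 1 probe and no such check.

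**Figure D3:**
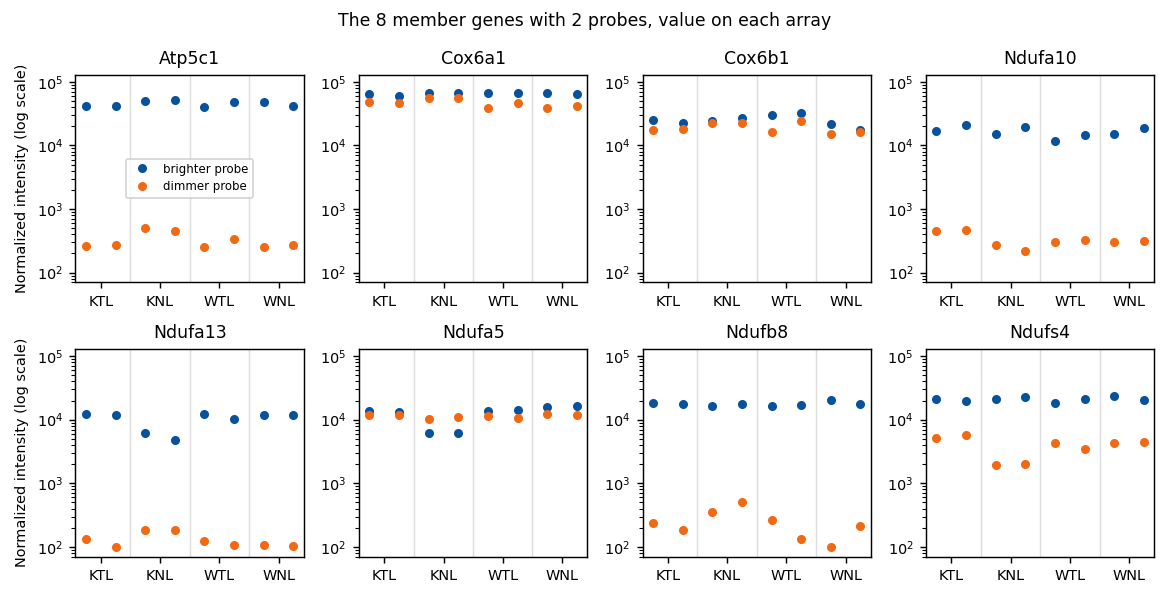
Normalized intensity (vertical axis, log scale, arbitrary units) on the 8 arrays, by group (horizontal axis), of both probes of each of the 8 oxidative phosphorylation genes with 2 probes. For Ndufa13 and Ndufa5 the brighter probe is low in KNL and the other is not, and for Ndufs4 it is the dimmer probe that is low in KNL, at 1974 and 2021 against 4373 and 4539.9 in WNL.

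The subunits are bright on this array, with a median at the 92.9th percentile of all probes and quartiles at 78.2 and 98.2, and bright probes were called less often in general. Of the 35 members at or above their own median intensity of 4977.1, 5 were lower and none was higher in KNL, 14.3% lower, against 8.59% lower and 0.842% higher of all 1188 probes that bright. Of the 35 below it, 10 were lower and 1 higher, 28.6% and 2.86%, against 13.8% lower and 7.4% higher of 15400. The bright members had a median change of 0.01, the dimmer ones of -0.35, against 0.05 and 0.18 for all probes of the same range. How far intensity itself shaped these counts was not tested.

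**Figure D4:**
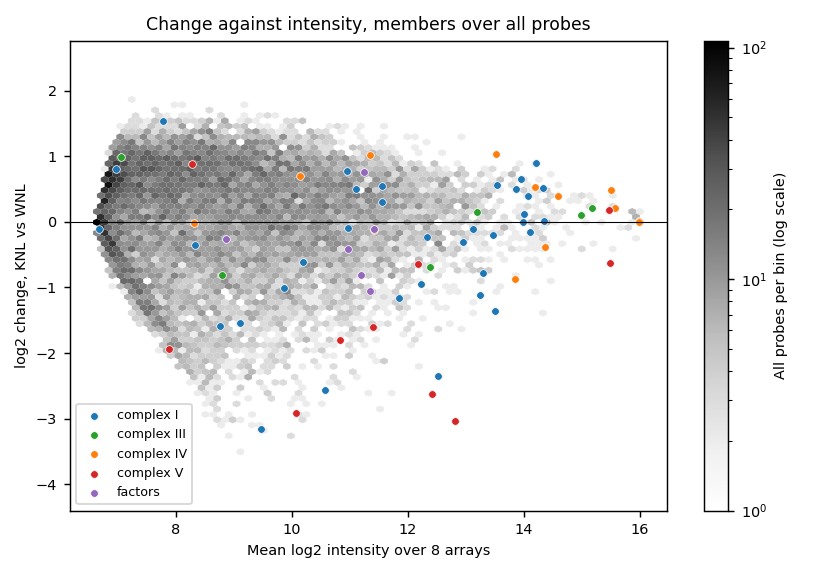
Log2 change in KNL vs WNL (vertical axis) against mean log2 intensity over 8 arrays (horizontal axis), with all 16588 probes as a shaded density on a log color scale and the 70 oxidative phosphorylation probes as points colored by complex. The members crowd at the bright end, where few probes of any kind change by more than 1 on the log2 scale, and Atp5g3 at -3.03 and Atp5a1 at -2.62 lie at the lower edge of the cloud.

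In trained knockouts many of these probes stood higher than in naive ones. In KTL vs KNL 14 of the 70 were higher, 2 were lower and 54 were not called, 20% higher and 2.86% lower, against 12.6% and 7.5% of all probes. The median change was 0.19, against -0.09 over all probes. Complex V had 5 higher of 10 with a median of 1.32, complex I 8 higher of 35 with a median of 0.19, complexes III and IV 1 lower each of 6 and 13 with medians of -0.06 and -0.08, and the factors 1 higher of 6. This comparison shares the KNL arrays with KNL vs WNL, so that a KNL array with a low value lowers one and raises the other. Their values are therefore given side by side and no overlap is counted.

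Atp5g3 stood at 12806 and 14419 in KTL against 1666 and 1485 in KNL, a change of 3.11 (log2, SE 0.13, adjusted p = 0.00018), beside -3.03 in KNL vs WNL. Atp5k changed by 3.07 (log2, SE 0.31, adjusted p = 0.000765), beside -2.91, and Atp5e by 2.19 (log2, SE 0.22, adjusted p = 0.000734), beside -1.81. For all 3 genes both KTL arrays lay above both WTL arrays as well. Atp5a1 at 1.95 and Atp5d at 1.66 passed narrowly (adjusted p = 0.00784 and 0.00791). Atp5j was not called, at 0.98 (adjusted p = 0.0299), beside -1.94 in KNL vs WNL.

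In complex I, Ndufb10 changed by 2.31, Ndufv2 by 2.25 and Ndufa6 by 2.08 (adjusted p = 0.00046, 0.000815 and 0.00141). The called probes of Ndufs4, Ndufa13 and Ndufa5 changed by 1.43, 1.14 and 1.13 (adjusted p = 0.000638, 0.00193 and 0.000444), and Cox7a2l by 1.14 (adjusted p = 0.00144). A pair of membrane-arm accessory subunits passed here although they had missed in KNL vs WNL. Ndufb2 read 1786 and 1816 in KTL, 858 and 694 in KNL, 1219 and 1035 in WTL and 1184 and 1178 in WNL, with changes of 1.22 in KTL vs KNL and -0.61 in KNL vs WNL (adjusted p = 0.00111 and 0.0105). Ndufb9 read 801 and 1006 in KTL, 359 and 192 in KNL, 692 and 385 in WTL and 849.8 and 692 in WNL, with changes of 1.77 and -1.55 (adjusted p = 0.0083 and 0.013). KTL was the highest group for Ndufb2, whereas the KTL and WNL arrays of Ndufb9 overlapped. Ndufs1 was the reverse case, at 0.56 in KTL vs KNL (adjusted p = 0.118) and -1.59 in KNL vs WNL. Its KTL arrays read 329.7 and 349.6, close to the 264 and 201 of KNL.

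The 2 lower probes were Cox6b2 and Uqcrq. Cox6b2 read 1975 and 1722 in KTL, against 4109 and 4701 in KNL, a change of -1.25 (log2, SE 0.15, adjusted p = 0.00133). Uqcrq, a small subunit of complex III, lay at the floor on both KTL arrays, against 224 and 241 in KNL, at least 2.32-fold lower in KTL (adjusted p = 0.00146). On the wild-type arrays it read 100 and 132 in WTL and 111 and 123 in WNL, so that the probe was dim outside KNL too.

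No oxidative phosphorylation probe was called by limma in the 3 comparisons without KNL. In KTL vs WTL, WTL vs WNL and KTL vs WNL the share of all probes called was 0.0241%, 0% and 0.0422%. At an unadjusted p under 0.05 there were 19, 9 and 9 of the 70, or 27.1%, 12.9% and 12.9%, against 17.5%, 15.1% and 11.5% of all probes, so that the last 2 shares lie near the background. SAM called 0 in each. In KTL vs WNL the changes ran from -1.03 for Ndufs1 to 1.13 for Cox5a, the gene with discordant WNL arrays, and the smallest adjusted p was 0.207, for Ndufb10. In KTL vs WTL they ran from -0.99 for Ndufs1 to 0.97 for Ndufb3, and the smallest adjusted p was 0.112, for Ndufb2. In WTL vs WNL they ran from -1.13 for Ndufb3 to 1.05 for Cox5a, with the smallest adjusted p of 0.195 for the brighter Cox6b1 probe.

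A missed threshold does not show equal levels. With a median SE of 0.14, the 95% interval of the change stayed within 2-fold in either direction for 55, 56 and 60 of the 70 probes in KTL vs WTL, WTL vs WNL and KTL vs WNL. For Atp5g3 in KTL vs WNL the change was 0.08 with an interval of -0.23 to 0.38. For Ndufb10 it was -0.85 with an interval of -1.33 to -0.38, for Atp5j -0.97 with -1.69 to -0.24 and for Ndufs1 -1.03 with -1.69 to -0.37. In all of these last 3 both KTL arrays lay below both WNL arrays. The interval of Atp5a1, -1.65 to 0.31 around -0.67, allowed a change beyond 2-fold, with 5119.6 and 8422 in KTL against 10683 and 10208 in WNL. In wild type the training change of complex V was negative for 9 of 10 probes, with a median of -0.44 beside 0.01 over all probes. No probe of it was called. The 10 probes were read on the same arrays and are no independent replicates. Some had WTL replicates far apart, such as Atp5a1 at 10986 and 5295. Ndufb3, an accessory subunit of the membrane arm of complex I, read 2462 and 4276 in WTL against 6920.2 and 7261 in WNL.

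The change with training in the knockout minus that in wild type was called for 15 of the 70 probes, 13 higher and 2 lower, against 13.3% higher and 8.46% lower of all probes. It was 3.53 (log2, SE 0.18, adjusted p = 0.0007) for Atp5g3, 3.75 (log2, SE 0.44, adjusted p = 0.002) for Atp5k and 2.65 (log2, SE 0.28, adjusted p = 0.00149) for Ndufb10. By complex, 8 were in complex I, 3 in complex V, 2 among the factors, and the 2 lower ones were Uqcrq of complex III and Cox6b2 of complex IV. Ndufb3 entered here at 1.92 (adjusted p = 0.0087), with changes of 0.79 in KTL vs KNL and -1.13 in WTL vs WNL. Atp5sl and Ndufa12l were called here at 1.02 and 1.02 (adjusted p = 0.00433 and 0.00884), and neither passed in KTL vs KNL. This contrast too contains the KNL arrays.

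Single arrays decided many of these calls. Without KNL replicate 2, 4 probes were lower in KNL vs WNL, and 6 without WNL replicate 2, 9 without WNL replicate 1 and 10 without KNL replicate 1, with a lone array assumed to vary like the other groups. These are 5.71%, 8.57%, 12.9% and 14.3% of the members, against 7.07%, 8.23%, 9.85% and 10.6% of all probes under the same omission. Without KNL replicate 2 or WNL replicate 2 the members were thus lower about as often as all probes. Of the 6 complex V calls 1, 2, 3 and 3 remained in the same order of omissions, of the 8 of complex I 3, 4, 5 and 7, and the rise of Cox6b2 was lost in each. Ndufa5, Ndufb10, Ndufv2 and Atp5g3 kept their call without any 1 array, and against a 2-fold change the 3 lower ones were Ndufb10, Ndufv2 and Atp5g3. In KTL vs KNL 6 were higher without KTL replicate 2, 7 without KNL replicate 2 and 9 without KTL replicate 1, and in each of these none was lower, while 1 was lower without KNL replicate 1. The higher ones were 8.57%, 10% and 12.9% of the members, against 5.07%, 5.75% and 6.38% of all probes. The interaction gave 2 and 1 higher without KTL replicate 1 and 2, 3 without KNL replicate 2, and 5 and 2 without WNL replicate 1 and 2, and none lower in these or without KNL replicate 1, and without WTL replicate 2 it gave 9 higher and 1 lower. Without either KTL array the members called higher in the interaction were 2.86% and 1.43%, against 2.71% and 1.41% of all probes, and without either WNL array 7.14% and 2.86%, against 7.29% and 4.33%.

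Genes of the pathway outside the name rule differed among themselves. Complex II, which feeds electrons from succinate into the chain, was lower in KNL vs WNL in all 5 of its probes, with a median of -2.10. Of all probes 13.5% were called lower. Its subunit Sdhd, a membrane anchor, read 1873 and 1857 in KTL, 381 and 246 in KNL, 1549.5 and 1664 in WTL and 1526 and 1803 in WNL. Sdhb, the iron-sulfur subunit, read 4265 and 4425 in KTL, 1361 and 1016 in KNL, 5155 and 3228 in WTL and 4589 and 5550.1 in WNL. The flavoprotein Sdha read 261 and 237 in KTL, 129 and 138 in KNL, 603 and 484 in WTL and 431 and 471 in WNL, and in all 3 genes KNL was the lowest group. Sdhc changed by -2.19 and -1.09 on its 2 probes. In KTL vs KNL 4 of the 5 complex II probes were higher, against 12.6% of all probes. Cyc1, the cytochrome c1 of complex III, was higher, with 16339 and 14644 in KTL, 23965 and 26163 in KNL, 15311 and 13148 in WTL and 12173 and 12489 in WNL, a change of 1.02 (log2, SE 0.12, adjusted p = 0.00111). Of 20 probes for 17 assembly factors none was called in KNL vs WNL or KTL vs KNL, with a median of 0.32 in KNL vs WNL. The all-probe shares were 6.93% higher and 13.5% lower in KNL vs WNL, and 12.6% and 7.5% in KTL vs KNL. Of 7 probes for the synthase inhibitor and for ATP export 1 was lower in KNL vs WNL, near the share of all probes. It was that of Slc25a4, the carrier that exchanges ATP for ADP, which read 11683 and 10437 in KNL, against 27652 and 30364 in WNL.

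Regulators of mitochondrial genes were mostly not called, as were probes in general. Of 13 probes for 12 genes, 1 was higher and 1 lower in KNL vs WNL, against 6.93% higher and 13.5% lower of all probes. Counts this small lie near the background. Esrra, a nuclear receptor that drives such genes, read 2489 and 2338 in KTL, 4433 and 5209.6 in KNL, 2533 and 3028 in WTL and 2223 and 2085 in WNL, a change of 1.16 (log2, SE 0.14, adjusted p = 0.00104), so that KNL was highest. Its relative Esrrg was lower on the first of its 2 probes, at the floor in KNL against 215 and 318 in WNL, by at least 2.61-fold, and on the other probe read 330.1 and 439 in KNL against 226 and 166 in WNL, a difference of 0.97 that was not called (adjusted p = 0.00895). Of the factors whose cores were searched, Nrf1 differed by 0.76, which was not called (adjusted p = 0.112). Gabpa, an ETS factor, was at the floor in KNL against 195 and 189 in WNL, at least 1.92-fold lower in KNL (adjusted p = 0.00197), so that the floor leaves it unknown if it passes 2-fold. Yy1 was not analysed here. Nrf1 and Gabpa were picked after their values were seen.

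Of 65 probes for cell type markers 11 were lower in KNL vs WNL and 1 was higher, 16.9% and 1.54%, against 13.5% and 6.93% of all probes, so that the share called lower was near the background. Of 18 probes for neuronal and hippocampal genes 4 were lower in KNL vs WNL, those of Neurod6, Prox1, Gria1 and Snap25, where other probes of Gria1 and Snap25 were not called, and their summed intensity was 219020 to 219358 in KNL and 213581 to 216029 in WNL. All 14 measured genes of this list were above the floor in WNL. Lower in KNL vs WNL were 1 of 11 astrocyte probes (Gfap), 1 of 8 oligodendrocyte probes (Mobp), 2 of 9 microglia probes (P2ry12 and Ctss) and 2 of 8 choroid plexus probes (Ttr and Enpp2), and of 6 endothelial probes 1 was higher (Pecam1) and 1 lower (Flt1). The summed intensity of astrocyte markers was 40046 to 45948 in KNL against 57106 to 57881 in WNL, of oligodendrocyte markers 46827 to 53352 against 73948 to 76049, of microglia markers 8932 to 10088 against 10396 to 10793, and of endothelial markers 4725 to 4779 against 3323 to 3788. Choroid plexus markers summed to 19695 to 20551 in KTL, 13760.3 to 17704 in KNL, 40346 to 42812 in WTL and 53941 to 55130.4 in WNL. Both KNL arrays were at the floor for P2ry12, Aif1, Tmem119, Flt1 and Tek. No muscle marker of 5 was called, with sums of 1220.3 to 1508 in KNL against 1240.3 to 1491 in WNL. The part of these cells in the changes of the oxidative phosphorylation genes was not tested.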

How the data were processed

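RNA pooled from the left hippocampi of 3 mice was amplified, labelled with Cy5 and hybridized to Mouse Whole Genome OneArray slides by a service laboratory. The deposited values are linear intensities. By the study's methods, 2 technical replicates had been averaged and the averages then normalized. Whether these replicates were spots or hybridizations is not stated. Of 29922 probes, 16588 have a value on all 8 arrays, and the filter behind the blanks is not given in the sources used here. The study's methods name a floor of 100 and quantile normalization for raw data. Here both steps were applied to the deposited, already normalized values, which were then taken to log2. Array medians were 481.1 to 482.2, with 6.64% to 6.86% of probes at the floor, and precision is limited by 2 arrays per group.

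Groups came from the sample titles. All 6 contrasts were fitted with limma 3.58.1 in R 4.3.3 over 8 arrays with 1 coefficient per group, and p-values were Benjamini-Hochberg adjusted over all 16588 probes. Neither labels nor methods state if replicate arrays came from different pools, and p-values then cover only array-to-array spread, possibly technical. Alternatives changed the floor, normalization, dim-probe filter, variance prior, test (SAM, which the study names, and a test against a 2-fold change), thresholds, arrays and probe choice. The test was tried on simulated data. Gene symbols came from GEO's platform annotation and promoters from RefSeq, where 10-letter forms of the NRF1 and YY1 cores had been searched before the shorter ones given here.

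The members, lists and rules were chosen with earlier results of these data known. Named with values are members called in any contrast, the brightest of each complex, genes with 2 probes and the tissue isoforms. Probes of other lists are named where called in KNL vs WNL, the cell type markers without their changes. Ndufv1, Atp5f1, Cox5a and those marked in the text were added after their values were seen.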

Additional observations from a re-analysis of the deposited data

Results flagged for a closer look

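The change with training in the knockout minus that in wild type, tested as an interaction in limma, passed for the 15 oxidative phosphorylation probes below. Of all probes 13.3% passed as higher and 8.46% as lower. A call here describes these arrays, which may be technical replicates. Each value is on the log2 scale and positive where KTL stood higher over KNL than WTL over WNL. In complex I it was 2.65 for Ndufb10, 2.49 for Ndufv2, 2.40 for Ndufa6, 1.92 for Ndufb3, 1.65 for the dimmer probe of Ndufs4, 1.34 and 1.22 for the brighter probes of Ndufa5 and Ndufa13, and 1.29 for Ndufb2. In complex V it was 3.75 for Atp5k, 3.53 for Atp5g3 and 2.48 for Atp5e. Among the factors it was 1.02 for Atp5sl and 1.02 for Ndufa12l. It was -1.19 for Uqcrq and -1.52 for Cox6b2. All of these contain the KNL arrays, which stood apart from the rest. Without any 1 array, only Atp5g3 of the 15 kept its call throughout.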

How the results depend on the processing

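Of 86 single-probe results 1 turned its sign, the uncalled Cox5a in KNL vs WNL, at -0.34 without WNL replicate 1. With 15 lower and 1 higher in KNL vs WNL, SAM called 3 higher, and a test against a 2-fold change gave 3 lower and 0 higher. An adjusted p under 0.05 gave 2 higher and no minimum change 10 higher. Of all probes, SAM called 10.2% higher and an adjusted p under 0.05 gave 9.63% higher. Against a 2-fold change 2.75% of all probes were lower and 0.0181% higher, and with no minimum change 18.7% were higher. A fit of only the 2 groups gave 11 lower and 1 higher, against 10.5% and 2.73% of all probes. With 14 higher and 2 lower in KTL vs KNL, the test against a 2-fold change gave 1 higher and 0 lower. Probes above an intensity of 200 gave 1 lower and no minimum change 5 lower. Of all probes 1.49% were higher and 0.0241% lower against a 2-fold change. Lower were 8.88% of those above an intensity of 200, and 16.8% with no minimum change. With 13 higher and 2 lower in the interaction, the test against a 2-fold change gave 1 higher and 0 lower, and no floor gave 1 lower. The shares of all probes were 0.916% higher and 0.00603% lower against a 2-fold change, and 9.06% lower with no floor. SAM and a fit of only 2 groups were not run for the interaction. Leaving out 1 array gave 4 to 16 lower and 0 to 1 higher in KNL vs WNL, 6 to 14 higher and 0 to 2 lower in KTL vs KNL, and 1 to 16 higher and 0 to 3 lower in the interaction. In KTL vs WTL, WTL vs WNL and KTL vs WNL it gave 0 throughout. The cause of these shifts was not tested. Over all probes, KNL vs WNL gave 3 higher and 456 lower against a 2-fold change, 453 and 1734 from its 4 arrays alone and 227 and 1173 without KNL replicate 2, against 1149 and 2234. The all-probe median of 0.16 became 0.09 with cyclic loess, with 16 member probes lower.

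With the replicate number as a block the counts were 15 lower and 1 higher in KNL vs WNL, 13 higher and 2 lower in KTL vs KNL, and 11 higher and 2 lower in the interaction. Deviations of same-numbered arrays correlated at -0.249 to 0.432 over the 6 pairs of groups. Such correlations cannot show if same-numbered arrays shared a batch, and the labels give them only a common number.

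Limits are the 2 arrays per group, the ceiling of the scanner for Cox8a, Cox6a1 and Atp5b, the floor for Uqcrq and Ndufab1, dim values for Atp5j, and single probes for most genes.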
